A study of Mus musculus with 16 samples.

Results

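Imprinted genes are transcribed only or mainly from the copy inherited from one parent, for some of them in certain tissues only. The 40 genes described here are imprinted in the mouse and lie outside the Dlk1-Dio3 cluster of chromosome 12, the imprinted region that has been followed most closely in induced pluripotent stem (iPS) cells. They were taken by name, each by its symbol or an older alias in the target names of the array, with all their probes. All 40 were on the array, on 86 of its 46643 probes and among its 32089 genes. Of the 40, 20 are known for expression from the maternal copy, 19 for expression from the paternal copy, and Gnas, which gives transcripts of both kinds, is the remaining 1.

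RNA of mouse cells was measured on 16 arrays, 2 for each of 8 groups, to set iPS lines made with Esrrb against embryonic stem (ES) cells and fibroblasts. The groups were R1 ES cells, the iPS lines OSE T8, OSE T9, OSCE 8, OSCE 13 and OSCK, and mouse embryonic fibroblasts (MEFs) with a transgene for green fluorescent protein (GFP) driven by the Actin or by the Pou5f1 promoter. The letters of the line names commonly stand for Oct4, Sox2, c-Myc, Klf4 and Esrrb, a nuclear receptor, but the labels do not spell them out. ES and iPS cells had the same culture, on feeder MEFs stopped with mitomycin C, in medium with 15% serum and LIF, and the MEFs themselves grew in DMEM with 15% serum and gentamicin. Each line stands for itself alone, and a comparison of lines that differ in their factors is also a comparison of single lines. The 2 arrays of a group are labelled as biological replicates, with nothing further on how they were separated, so the p-values measure the spread between such arrays, which may in part be technical.

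Genomic imprints are methylation marks set in the egg or the sperm at control regions, and they are kept through the wave of demethylation in the early embryo by factors that include the zinc finger protein ZFP57. A control region governs a whole cluster, so neighbouring genes can be expressed from opposite parental copies. Many paternally expressed genes promote growth of the embryo and placenta, many maternally expressed genes restrain it, and in cultured pluripotent cells imprints are known to be lost or gained. The arrays measure RNA from both copies together and cannot tell the parental copies apart.

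The start regions of 5 members are shown because, of the members that the promoter table holds, their RNA had the widest range of group means in its cluster, with Grb10 standing for the genes imprinted singly, and because these ranges were the widest. H19, with the widest range of all, is not among them. The sequences come from a table of RefSeq promoters on GRCm38.p6 that runs from 250 bases before the start of the gene to 50 after it. The table holds 33 of the 40 members. For Mest, Snrpn and Grb10, which have several starts, the window with the most copies of the motif named next is shown, so its presence there was chosen. All are written 5′ to 3′ on the strand of the gene, and capitals mark the motif TGCCGC or its reverse complement GCGGCA, which ZFP57 is known to bind when methylated. The windows are Phlda2 at chr7:143502475-143502774 on the minus strand, Snrpn at chr7:60005150-60005449 on the minus strand, Peg3 at chr7:6730370-6730669 on the minus strand, Grb10 at chr11:12037371-12037670 on the minus strand and Mest at chr6:30737800-30738099 on the plus strand.
Phlda2: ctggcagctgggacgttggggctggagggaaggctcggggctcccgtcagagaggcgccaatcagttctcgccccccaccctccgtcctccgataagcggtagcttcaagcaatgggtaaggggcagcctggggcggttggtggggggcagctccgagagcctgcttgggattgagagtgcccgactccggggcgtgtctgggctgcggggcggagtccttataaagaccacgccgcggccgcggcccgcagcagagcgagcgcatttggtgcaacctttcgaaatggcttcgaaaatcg
Snrpn: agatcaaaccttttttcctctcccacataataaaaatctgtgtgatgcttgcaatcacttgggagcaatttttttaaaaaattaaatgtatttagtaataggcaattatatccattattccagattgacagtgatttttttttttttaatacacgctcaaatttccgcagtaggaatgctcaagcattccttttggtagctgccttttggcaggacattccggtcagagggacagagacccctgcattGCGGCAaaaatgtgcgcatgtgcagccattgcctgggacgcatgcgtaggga
Peg3: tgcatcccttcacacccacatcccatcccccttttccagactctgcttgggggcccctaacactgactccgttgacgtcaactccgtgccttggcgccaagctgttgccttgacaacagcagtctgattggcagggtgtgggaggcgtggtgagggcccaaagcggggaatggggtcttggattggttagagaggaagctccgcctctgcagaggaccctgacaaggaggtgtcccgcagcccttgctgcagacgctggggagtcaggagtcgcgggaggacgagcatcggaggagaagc
Grb10: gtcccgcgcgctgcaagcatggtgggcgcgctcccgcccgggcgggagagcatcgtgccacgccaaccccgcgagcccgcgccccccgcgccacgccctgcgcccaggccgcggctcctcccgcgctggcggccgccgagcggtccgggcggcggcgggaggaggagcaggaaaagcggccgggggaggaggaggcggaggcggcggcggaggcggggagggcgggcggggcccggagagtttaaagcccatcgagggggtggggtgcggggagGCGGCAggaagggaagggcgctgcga
Mest: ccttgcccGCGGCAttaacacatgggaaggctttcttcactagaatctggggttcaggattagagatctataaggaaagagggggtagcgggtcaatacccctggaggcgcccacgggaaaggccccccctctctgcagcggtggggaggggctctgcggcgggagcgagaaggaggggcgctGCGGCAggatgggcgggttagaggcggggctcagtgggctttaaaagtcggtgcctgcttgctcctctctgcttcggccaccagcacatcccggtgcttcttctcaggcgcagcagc
The motif stood 2 times in the Mest window and 1 time each in those of Snrpn and Grb10, while those letters were not in the Phlda2 and Peg3 windows. Of the 33 members in the table, 12 (36.4%) had it in at least 1 window, against 13.1% of all 27025 genes there. Counted by windows, these are 13 of 52 (25.0%) against 11.6% of 32851. The windows of the members were also richer in CpG, with a median of 14.5 against 7, and the motif itself contains a CpG. The window of Peg3 shares 263 bases with that of its neighbour Usp29, which is read from the opposite strand. A match is a description of these letters, since methylation and ZFP57 binding were not measured here.

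Levels are log2 of background-corrected and quantile-normalized intensity. Each gene is given by its brightest probe over the 16 arrays and was tested if that probe was above background, at a detection p under 0.01, on at least 2 arrays. This left 15642 genes and 31 of the 40 members, of which 20 were above background on all 16 arrays and 11 on part of them. The other 9 members, Kcnq1, Slc22a18, Slc22a2, Slc22a3, Magel2, Peg12, Sgce, Calcr and Zrsr1, were above background on no array by that probe, although a dimmer Kcnq1 probe was on 2 arrays. Differences are given on log2 with their standard error (SE) from a limma fit across all tested genes, and a gene is called higher or lower at an adjusted p under 0.05 (Benjamini-Hochberg over all tested genes).

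The pluripotency and fibroblast markers followed the labels. The 9 pluripotency markers on the array summed to between 14141 and 23773 units of linear intensity on the ES and iPS arrays and to between 197 and 211 on the MEF arrays. All 16 fibroblast markers, among them collagens and Lum, were called higher in MEFs than in ES cells. Their sum was 11195 to 12544 in ES cells, 14782 to 15616 in OSCK, 11225 to 12194 in OSCE 8, 13389 to 15682 in OSCE 13, 13629 to 14584 in OSE T8, 16684 to 19707 in OSE T9 and 43884 to 48049 in MEFs. The fibroblast sum was thus lowest in ES cells and OSCE 8, and among the lines highest in OSE T9. Against ES cells, 3 of the 16 fibroblast markers were called higher and 1 lower in OSCK, and 1 and 2 in OSCE 8. These counts were 2 and 1 in OSCE 13, 4 and 2 in OSE T8, and 8 and 1 in OSE T9. OSCE 8 had the most calls against ES cells in pluripotency, macrophage and primitive endoderm markers. In it 5 of 9 pluripotency markers were lower and 1 higher than in ES cells. Of 7 tested macrophage markers 6 were higher and 1 lower, with a sum of 1895 to 1922 against 741 to 777 in ES cells. Of 5 tested markers of primitive endoderm 4 were higher, with a sum of 771 to 845 against 533 to 548. Other lines shared part of this. In OSCK 4 of 7 macrophage markers were higher and 1 lower, with a sum of 986 to 990. In OSE T8 3 of 5 primitive endoderm markers were higher and 0 lower. In OSE T9 3 of 9 pluripotency markers were lower and 1 higher. The primitive endoderm sum was highest in MEFs, at 3404 to 3697 with Actin-GFP and 2375 to 2777 with Pou5f1-GFP. This list therefore does not single out 1 cell type here. In such bulk samples fewer cells of a type and less RNA per cell cannot be told apart. Replicate arrays correlated at 0.989 to 0.995 across tested genes, and between 35.5% and 38.8% of probes were above background.

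MEFs and ES cells differed widely in imprinted RNA. MEFs had far more H19, Igf2, Cdkn1c, Peg3, Grb10 and Mest, and far less Phlda2 and Snrpn. Of the 31 members tested, 16 were higher and 6 lower in MEFs. The arrays of the 2 cell types did not overlap for any of these 22, which were called on the same arrays. Overlap was not counted over all genes, so this cannot be read as particular to the members. Across all genes, 61.0% were called in this comparison, and 71.0% of the members were, so the share called is near the background. Differences of 2-fold or more were called for 14 of the 31 members and for 23.1% of all genes. Their median difference was 0.27, or 0.26 with differences from a group below background taken at their bound, beside -0.02 over all genes.

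**Figure D1:**
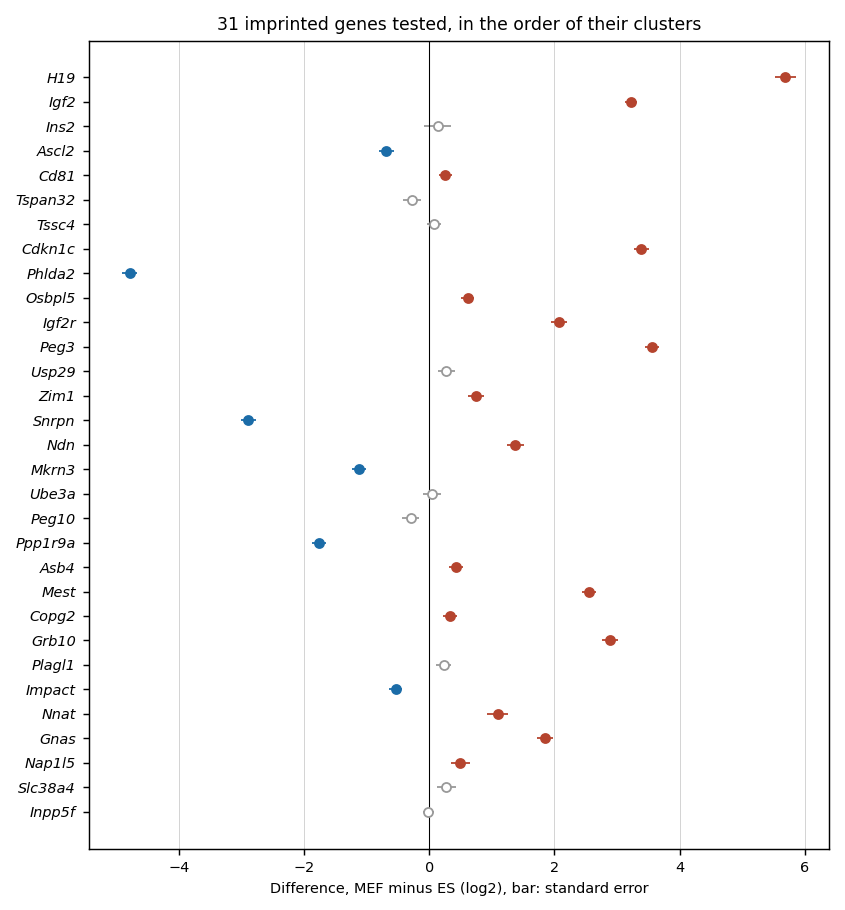
Difference between MEFs and ES cells on log2 for the 31 imprinted genes tested, in the order of their clusters, with the SE as a bar. Red points are the 16 members called higher in MEFs, blue points the 6 called lower, and open points the 9 not called; H19 lies farthest to the right and Phlda2 farthest to the left.

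The place of the iPS lines between ES cells and MEFs differed from gene to gene. Of the 22 members called between MEFs and ES cells, 12 had the mean of the 5 lines between both and nearer ES cells, among them H19, Igf2, Cdkn1c, Phlda2 and Grb10. In 2, Ascl2 and Peg3, it lay between and nearer MEFs, and Mest, counted with the 12, was about midway. In 8, among them Snrpn, Mkrn3, Impact and Nnat, it lay outside the range of the other two. With equal weight for each line, the 5 lines had 10 members higher and 3 lower than ES cells, where 22.0% of all genes were called. Peg3 and Mest were called higher in every line, H19 and Nnat in 4 of 5, and these 4 were the only members to reach 2-fold over the lines together, where 2.94% of all genes did. With each line counted as 1 replicate, Peg3 alone was called, and H19 (adjusted p = 0.631), Mest (0.467) and Nnat (0.795) were not. For 5 of the 13 called members the 10 line arrays did not overlap the 2 ES arrays. This share was not counted over all genes either, so it cannot be read as particular to the members. The count hung on the ES arrays, and fell to 7 without the first of them and to 6 without the second. Relative to MEFs the 5 lines had 8 members higher and 16 lower, where 70.0% of all genes were called. H19 was 17.9-fold, Cdkn1c 9.68-fold, Igf2 7.55-fold and Grb10 7.17-fold lower in the lines than in MEFs, while Peg3 and Mest, at 2.64-fold and 2.43-fold lower, differed less. Phlda2 was at least 16.9-fold and Snrpn 9.67-fold higher in the lines.

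Line by line, against the same 2 ES arrays, OSCK had 9 members higher and 3 lower (16.9% of all genes called). OSCE 8 had 10 higher and 3 lower (24.2% of all genes), and OSCE 13 had 7 higher and 1 lower (19.4%). OSE T8 had 8 higher and 5 lower (20.7%), and OSE T9 had 6 higher and 2 lower (20.4%). In all, 22 of the 31 members were called in at least 1 line, beside 44.8% of all genes, 7 of them in 1 line only, beside 18.4% of all genes, and 9 in none. Many of these differences were small: without the second ES array the counts fell to 4 in OSE T9, 6 in OSE T8, 7 in OSCK and 8 in OSCE 8. They also fell to 6 without the second OSCK array, to 7 without the second OSCE 8 array, and to 8 without either OSE T8 array. With array medians set equal in place of quantile normalization, the split in OSCK was 6 higher and 1 lower, and in OSE T9 it was 3 higher and 2 lower. With an offset of 50 it was 9 higher and 1 lower in OSCK and 11 higher and 4 lower in OSE T8. OSCE 13 and the OSE lines lie on other slides than ES cells, so for them slide and group cannot be told apart. On the slides that ES cells share with MEFs, OSCK and OSCE 8, all called members kept their sign on both slides. These are the arrays that gave the calls, so the agreement is no separate check on slide effects.

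**Figure D2:**
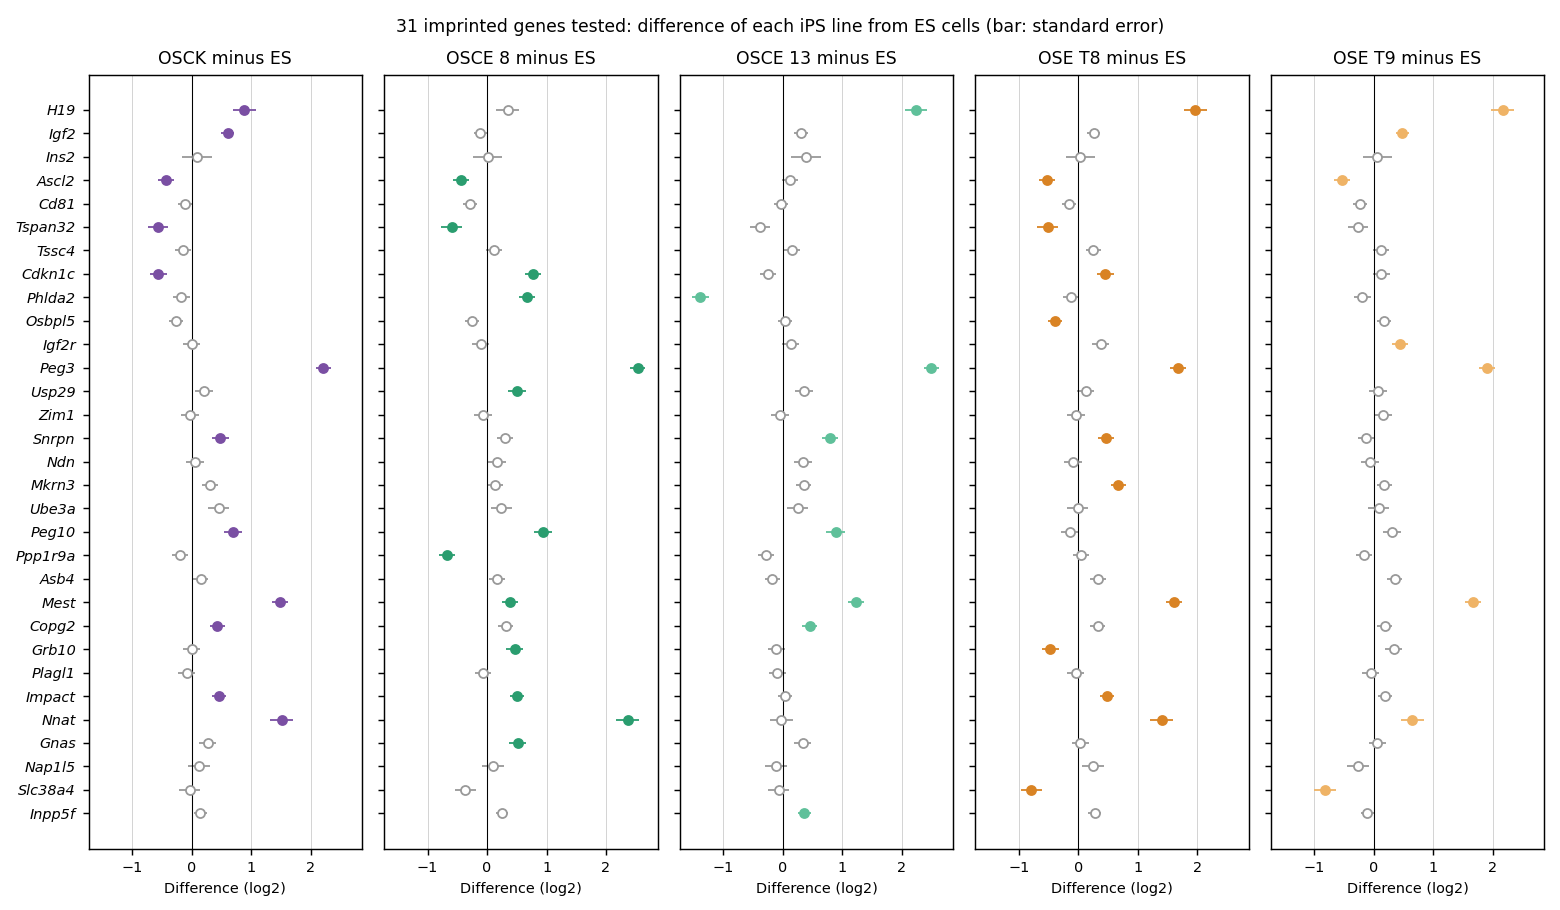
Difference of each iPS line from ES cells on log2 for the 31 imprinted genes tested, with the SE as a bar and 1 panel a line. Filled points are called members; Peg3 and Mest are filled in all 5 panels, and Phlda2 is filled to the right in OSCE 8 and to the left in OSCE 13.

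Members were grouped by the copy they are known for, which was not measured in these cells. In the 5 lines against ES cells, the 15 tested paternally expressed members had 8 higher and 1 lower, with a median difference of 0.31. Of all genes, 10.8% were higher and 11.2% lower in that comparison. The 15 maternally expressed members had 2 higher and 2 lower, with a median of 0.05. The paternally expressed members called higher were Igf2, Peg3, Snrpn, Mkrn3, Peg10, Mest, Impact and Nnat, and the one called lower was Slc38a4. The Slc38a4 call was lost with array medians set equal, with no filter on dim probes and in a fit of only the groups compared. Without the second ES array its fitted difference went from -0.41 to -0.20. Without the first or without the second ES array, or with array medians set equal, 4 paternally expressed members were called higher. Without the second ES array the medians were 0.28 and 0.02. Line by line, the paternally expressed members had the higher median except in OSE T9, with 0.07 against 0.13 for the maternally expressed. The difference between the 2 classes was not tested. MEFs differed from ES cells in members of both classes, with 9 higher and 3 lower maternally expressed and 6 higher and 3 lower paternally expressed, where 30.7% of all genes were higher and 30.3% lower.

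In the Igf2-H19-Kcnq1 domain of chromosome 7, H19, a maternally expressed noncoding RNA, had the largest rise in MEFs of all members. H19 stood at 8.25 and 7.95 on the ES arrays, 8.92 and 9.06 in OSCK, 8.51 and 8.39 in OSCE 8, and 10.28 and 10.41 in OSCE 13. It reached 9.94 and 10.20 in OSE T8, 9.92 and 10.62 in OSE T9, 13.67 and 13.48 in Actin-GFP MEFs, and 14.12 and 13.89 in Pou5f1-GFP MEFs. The arrays form tiers, with ES cells, OSCE 8 and OSCK below, OSCE 13 and both OSE lines in the middle and MEFs on top, none overlapping. MEFs exceeded ES cells 51.6-fold (5.69 ± 0.17, adjusted p = 5.13e-13). OSCE 13 exceeded ES cells 4.73-fold (2.24 ± 0.19, adjusted p = 8.53e-07), OSE T8 3.92-fold, OSE T9 4.49-fold and OSCK 1.85-fold, the last lost without the second ES array (adjusted p = 0.0563). OSCE 8 was not called, with a difference of 0.35. The middle tier holds the 3 lines of the other slides. The fibroblast sum was also above its ES range in all 3, as it was in OSCK. Most fibroblast markers were not called against ES cells in OSCE 13, OSE T8 and OSCK, and their part in H19 was not tested.

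Igf2, the fetal growth factor beside H19 and expressed from the opposite copy, shared its rise in MEFs but not its tiers among the lines. Igf2 measured 11.58 and 11.38 in ES cells, 12.07 and 12.10 in OSCK, 11.42 and 11.30 in OSCE 8, 11.83 and 11.75 in OSCE 13, 11.71 and 11.78 in OSE T8, and 11.88 and 12.04 in OSE T9. The MEF arrays read 14.70 and 14.67 with Actin-GFP and 14.75 and 14.70 with Pou5f1-GFP. MEFs were far above all other arrays, and OSCE 8 lay within or just under the ES range. The rise in MEFs was 9.35-fold (3.23 ± 0.10, adjusted p = 6.57e-13). Among the lines only OSCK (1.52-fold, adjusted p = 0.00125) and OSE T9 (1.40-fold, adjusted p = 0.00597) were called, and the OSE T9 call was lost without the second ES array.

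Cdkn1c, a maternally expressed inhibitor of cyclin-dependent kinases that restrains growth, moved both ways among the lines. Its levels were 9.33 and 9.23 in ES cells, 8.77 and 8.68 in OSCK, 10.22 and 9.88 in OSCE 8, 9.14 and 8.94 in OSCE 13, 9.78 and 9.70 in OSE T8, and 9.56 and 9.26 in OSE T9. In MEFs they were 12.17 and 12.25 with Actin-GFP and 13.19 and 13.06 with Pou5f1-GFP. OSCK and OSCE 13 lay below and OSCE 8 and OSE T8 above the ES arrays. OSCE 8 exceeded ES cells 1.70-fold (0.77 ± 0.14, adjusted p = 0.000746), while OSCK fell by 0.56 (± 0.14, adjusted p = 0.0108), a call lost without the first ES array or the second OSCK array. The 2 lines differed from each other 2.51-fold (1.33 ± 0.14, adjusted p = 7.73e-06). MEFs exceeded ES cells 10.4-fold (adjusted p = 4.48e-12), and Actin-GFP MEFs were 1.89-fold below Pou5f1-GFP MEFs (adjusted p = 0.000324).

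Phlda2, a maternally expressed gene known to restrain growth of the placenta, was the one member above background on all 12 ES and iPS arrays and on no MEF array. Phlda2 read 9.25 and 9.21 in ES cells, 9.06 and 9.05 in OSCK, 9.90 and 9.89 in OSCE 8, 7.82 and 7.87 in OSCE 13, 9.08 and 9.14 in OSE T8, and 9.30 and 8.77 in OSE T9. The 4 MEF arrays read 4.30, 4.36, 4.52 and 4.60, none above background. OSCE 13 stood apart below all other pluripotent arrays, and OSCE 8 above them. ES cells were at least 19.9-fold above MEFs (adjusted p = 1.31e-13). OSCE 13 was 2.61-fold below ES cells (-1.38 ± 0.14, adjusted p = 4.63e-06) and OSCE 8 was 1.59-fold above them (0.67 ± 0.14, adjusted p = 0.0023). Both neighbours in this domain, Cdkn1c and Phlda2, had their highest mean among the lines in OSCE 8.

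The other members of the domain changed less. Osbpl5, a lipid transfer protein, was 1.53-fold higher in MEFs and 1.30-fold lower in OSE T8 than in ES cells, the latter lost without the second ES array or either OSE T8 array. Cd81, a tetraspanin, was bright everywhere, from 13.16 in OSCE 8 to 13.80 in Actin-GFP MEFs, and was called 1.20-fold higher in MEFs than in ES cells, a call lost without either ES array and without the second array of either MEF type. Ascl2, a transcription factor of the trophoblast, was above background in ES cells and OSCE 13 only and was lower in the other 4 lines, from at least 1.13-fold to at least 1.20-fold. All 4 calls were lost without the first ES array, where the fitted difference in OSCK went from -0.43 to -0.23. Tspan32 was called lower in OSCK, OSCE 8 and OSE T8, from at least 1.12-fold to at least 1.18-fold, near background throughout. Its 3 calls were lost without the second ES array, with fitted differences from -0.26 to -0.34 in place of -0.51 to -0.60. Tssc4 and Ins2, an insulin gene, were called in no comparison. Kcnq1 and Slc22a18 were the untested members of the domain.

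On chromosome 17, Igf2r is the maternally expressed receptor that clears IGF2 from the cell surface. Igf2r measured 9.53 and 9.23 in ES cells, 9.48 and 9.28 in OSCK, 9.28 and 9.26 in OSCE 8, 9.56 and 9.47 in OSCE 13, 9.94 and 9.58 in OSE T8, and 9.92 and 9.72 in OSE T9. It measured 11.27 and 11.30 in Actin-GFP and 11.69 and 11.57 in Pou5f1-GFP MEFs. MEFs were set off from all others, and the lines overlapped ES cells except OSE T8 and OSE T9, which lay above. MEFs exceeded ES cells 4.21-fold (2.07 ± 0.12, adjusted p = 1.35e-09), and OSE T9 exceeded them 1.36-fold (0.44, adjusted p = 0.0401). The OSE T9 call was lost without the second ES array (0.29, adjusted p = 0.307), without the first OSE T9 array, with array medians set equal (0.27), with no filter on dim probes and in a fit of only the groups compared. Its neighbours Slc22a2 and Slc22a3, organic cation transporters, were not above background.

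Peg3, a paternally expressed zinc finger protein, separated ES cells from every line and from MEFs. Peg3 stood at 7.12 and 7.08 in ES cells, 9.43 and 9.20 in OSCK, 9.80 and 9.46 in OSCE 8, 9.68 and 9.52 in OSCE 13, 8.78 and 8.76 in OSE T8, and 9.0 and 9.0 in OSE T9. MEFs were at 10.83 and 10.68 with Actin-GFP and 10.54 and 10.60 with Pou5f1-GFP. The 2 ES arrays were the lowest of all 16, and the MEF arrays the highest. MEFs exceeded ES cells 11.8-fold (3.57 ± 0.11, adjusted p = 1.21e-12). The lines exceeded them 4.64-fold in OSCK (2.21 ± 0.13, adjusted p = 1.68e-08), 5.78-fold in OSCE 8, 5.66-fold in OSCE 13, 3.2-fold in OSE T8 and 3.74-fold in OSE T9. The highest of these lines, OSCE 8, had fibroblast sums within the ES range and higher macrophage and primitive endoderm sums, as given above, and the part of these cell types in Peg3 was not tested. Within the slides shared with ES cells, the difference was 2.68 and 2.38 for OSCE 8 and 2.31 and 2.12 for OSCK. Both OSE lines were lower than OSCE 13, by 0.71 (± 0.11, adjusted p = 0.00035).

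A second, dimmer Peg3 probe was above background on all line and MEF arrays and on neither ES array, and was called higher in every line, from at least 2.25-fold in OSE T9 to at least 3.84-fold in OSCE 13. Another, dimmer still, was above background on 4 MEF arrays and 1 OSCE 8 array and was called higher than in ES cells in MEFs, at least 1.54-fold, and in OSCE 8, where no bound can be given. Peg3 was also the only member still called over the 5 lines when each line counted as 1 replicate. Usp29, the paternally expressed gene that starts beside Peg3, stayed near background: its brightest probe was called higher in OSCE 8 (at least 1.15-fold), which was lost without either ES array or the first OSCE 8 array, and a dimmer one in OSCE 13 (at least 1.17-fold). Zim1, a maternally expressed neighbour, was above background in MEFs only, on 1 Actin-GFP and 2 Pou5f1-GFP arrays, at least 1.17-fold above ES cells.

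**Figure D3:**
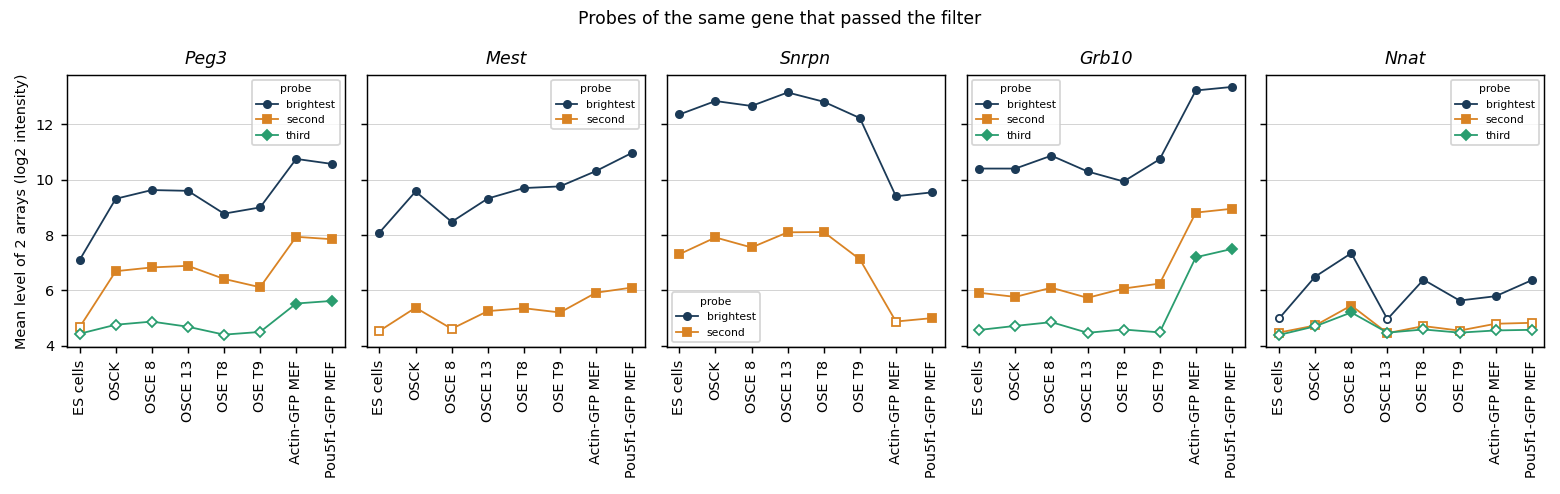
Mean level of 2 arrays on log2 intensity in each of the 8 groups for every probe of Peg3, Mest, Snrpn, Grb10 and Nnat that passed the filter, with open symbols where fewer than 2 arrays were above background. The 2 brighter Peg3 probes are lowest in ES cells, the dimmer Mest probe is at background in ES cells and OSCE 8, both Snrpn probes drop in MEFs, and all 3 Grb10 probes are highest in MEFs.

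In the Snrpn-Ndn cluster of chromosome 7, the region of Prader-Willi and Angelman syndromes in humans, the members went in opposite directions in MEFs. Snrpn, a paternally expressed splicing protein, read 12.31 and 12.42 in ES cells, 12.71 and 12.99 in OSCK, 12.70 and 12.64 in OSCE 8, 13.12 and 13.19 in OSCE 13, 12.82 and 12.82 in OSE T8, and 12.41 and 12.06 in OSE T9. In MEFs it read 9.31 and 9.49 with Actin-GFP and 9.47 and 9.61 with Pou5f1-GFP. It was high in all pluripotent arrays, highest in OSCE 13, and low in MEFs. MEFs were 7.40-fold below ES cells (-2.89 ± 0.12, adjusted p = 2.09e-11), and its second probe gave -2.37. OSCE 13 was 1.74-fold above ES cells (0.80 ± 0.14, adjusted p = 0.000621), with smaller calls in OSCK and OSE T8 that were lost without either ES array. OSE T8 exceeded OSE T9 1.5-fold (adjusted p = 0.0102), which was lost without the second array of either line.

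Ndn, which encodes necdin, a growth suppressor of neurons expressed from the paternal copy, went the other way. Its values were 10.78 and 11.18 in ES cells, 10.96 and 11.11 in OSCK, 11.18 and 11.11 in OSCE 8, 11.19 and 11.47 in OSCE 13, 10.79 and 11.00 in OSE T8, and 10.79 and 11.03 in OSE T9. The MEF values were 12.39 and 12.50 for Actin-GFP and 12.22 and 12.31 for Pou5f1-GFP. MEFs lay above every other array, and the lines lay around ES cells, with OSCE 13 at their upper edge. MEFs exceeded ES cells 2.60-fold (1.38 ± 0.13, adjusted p = 2.46e-07), and no line was called against ES cells.

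Mkrn3, a paternally expressed ring finger protein, followed Snrpn. Mkrn3 measured 6.84 and 6.99 in ES cells, 7.17 and 7.27 in OSCK, 7.0 and 7.10 in OSCE 8, 7.24 and 7.28 in OSCE 13, 7.69 and 7.48 in OSE T8, 7.02 and 7.16 in OSE T9, 5.40 and 5.49 in Actin-GFP MEFs, and 6.31 and 5.99 in Pou5f1-GFP MEFs. It was lowest in Actin-GFP MEFs and highest in OSE T8. MEFs were 2.17-fold below ES cells (-1.12 ± 0.11, adjusted p = 4.87e-07), and Actin-GFP MEFs 1.62-fold below Pou5f1-GFP MEFs (adjusted p = 0.00176). OSE T8 exceeded ES cells 1.59-fold (adjusted p = 0.00152). Ube3a, the maternally expressed ubiquitin ligase of the cluster, was called in no comparison by its brightest probe, while 1 of its dimmer probes, below background in ES cells, was called higher in OSCE 8 (at least 1.30-fold). Magel2 and Peg12 were not above background.

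In the Peg10-Sgce cluster of chromosome 6, Ppp1r9a, which encodes the actin-binding neurabin and is expressed from the maternal copy in some tissues, was lower in MEFs. Its arrays gave 7.52 and 7.60 in ES cells, 7.41 and 7.32 in OSCK, 6.90 and 6.89 in OSCE 8, 7.31 and 7.24 in OSCE 13, 7.67 and 7.55 in OSE T8, 7.57 and 7.22 in OSE T9, 5.33 and 5.39 in Actin-GFP MEFs, and 6.38 and 6.09 in Pou5f1-GFP MEFs. OSCE 8 was the lowest of the pluripotent groups, and no MEF array reached it. MEFs were 3.40-fold below ES cells (-1.77 ± 0.11, adjusted p = 3.85e-09) and OSCE 8 was 1.59-fold below them (adjusted p = 0.00162). A dimmer probe was above background on no MEF array and was called lower there, at least 1.17-fold, while in OSCE 8 it did not differ from ES cells by more than its error (0.00 ± 0.16).

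Peg10, a paternally expressed gene derived from a retrotransposon and needed in the placenta, was above background on both arrays of OSCK, OSCE 8 and OSCE 13, on 1 of OSE T9 and on none of ES cells, OSE T8 or MEFs. It exceeded ES cells at least 1.34-fold in OSCK, at least 1.59-fold in OSCE 8 and at least 1.54-fold in OSCE 13, and the OSCK call was lost without the first OSCK array. Both OSE lines together were 1.75-fold below OSCE 13 (adjusted p = 0.000593). Asb4 was called higher in MEFs, at least 1.09-fold, which was lost without the first ES array, and Sgce and Calcr were not above background.

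Mest, a paternally expressed member of the hydrolase family, was likewise lowest in ES cells, with OSCE 8 close to them. Mest stood at 8.11 and 8.07 in ES cells, 9.66 and 9.49 in OSCK, 8.53 and 8.42 in OSCE 8, 9.33 and 9.32 in OSCE 13, 9.54 and 9.86 in OSE T8, and 9.63 and 9.89 in OSE T9. MEFs read 10.25 and 10.38 with Actin-GFP and 11.04 and 10.92 with Pou5f1-GFP. ES cells were lowest, OSCE 8 next, the other 4 lines well above and MEFs highest. The rise in MEFs was 5.87-fold (adjusted p = 6.1e-11). The lines exceeded ES cells 2.80-fold in OSCK (1.48 ± 0.13, adjusted p = 1.5e-06), 2.34-fold in OSCE 13, 3.05-fold in OSE T8 and 3.18-fold in OSE T9. OSCE 8 exceeded ES cells by 0.39 only (± 0.13, adjusted p = 0.0459), a call lost without either ES array. OSCE 8 was 2.14-fold below OSCK (-1.10 ± 0.13, adjusted p = 3e-05). A dimmer probe was above background on no array of ES cells or OSCE 8, so it gives no difference between them, and was called higher in the other 4 lines, from at least 1.19-fold to at least 1.34-fold. The 4 lines with more Mest all had fibroblast sums above the ES range, and OSCE 8 did not. In OSCK, OSCE 13 and OSE T8 most fibroblast markers were not called, and the part of fibroblast RNA in Mest was not tested.

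Copg2, a coat protein subunit and the neighbour of Mest, was called 1.35-fold higher in OSCK, 1.37-fold higher in OSCE 13 and 1.26-fold higher in MEFs than in ES cells. All 3 calls were lost without the second ES array.

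Of the genes imprinted singly or in small groups, Grb10, an adaptor that dampens insulin and IGF signalling and is maternally expressed outside the brain, was among the strongest in MEFs. Grb10 read 10.42 and 10.39 in ES cells, 10.36 and 10.45 in OSCK, 10.89 and 10.86 in OSCE 8, 10.34 and 10.26 in OSCE 13, 9.97 and 9.90 in OSE T8, 10.55 and 10.93 in OSE T9, 13.39 and 13.06 in Actin-GFP MEFs, and 13.47 and 13.24 in Pou5f1-GFP MEFs. MEFs were apart from all others. The rise over ES cells was 7.41-fold (2.89 ± 0.12, adjusted p = 3.78e-11), and its other probes gave 2.97 and at least 5.29-fold. The brightest probe was called higher in OSCE 8 (0.47 ± 0.14, adjusted p = 0.0267) and lower in OSE T8 (-0.47 ± 0.14, adjusted p = 0.03). Both calls were lost when any 1 array of the groups compared was left out. A second probe, above background on all arrays, gave 0.18 in OSCE 8 and 0.15 in OSE T8, neither called, and the third was below background in ES cells and every line. The second was called in OSE T9 (0.33), where the brightest was not (0.34).

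Nnat, neuronatin, a paternally expressed membrane protein of brain and endocrine cells, varied more among the lines than any other member. Nnat stood at 4.96 and 5.01 in ES cells, where 1 of 2 arrays was above background, and at 5.33 and 4.58 in OSCE 13, likewise 1 of 2. It reached 6.52 and 6.47 in OSCK, 7.40 and 7.29 in OSCE 8, 6.56 and 6.21 in OSE T8, and 5.75 and 5.51 in OSE T9. MEFs read 5.93 and 5.65 with Actin-GFP and 6.37 and 6.36 with Pou5f1-GFP. OSCE 8 was the highest group of all, above MEFs, and OSCE 13 overlapped ES cells. OSCE 8 exceeded ES cells 5.14-fold (2.36 ± 0.20, adjusted p = 4.07e-07), OSCK 2.86-fold, OSE T8 2.65-fold and OSE T9 1.57-fold, while OSCE 13 differed by -0.02 (± 0.20). In MEFs Nnat was 2.14-fold above ES cells (adjusted p = 4.4e-05). Both of its dimmer probes were below background in ES cells and called higher in OSCE 8, at least 1.42-fold and at least 1.19-fold. The OSE T9 call was lost without either ES array and without the first OSE T9 array. The OSCE 8 fibroblast sum was within the ES range, but most macrophage and primitive endoderm markers given above were higher in that line. So were 4 of 7 macrophage markers in OSCK, with 1 lower, and 3 of 5 primitive endoderm markers in OSE T8. Their part in Nnat was not tested.

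Gnas encodes the stimulatory G protein alpha subunit and other transcripts of either copy. Gnas gave 8.96 and 8.74 in ES cells, 8.94 and 9.31 in OSCK, 9.27 and 9.46 in OSCE 8, 9.13 and 9.26 in OSCE 13, 8.93 and 8.85 in OSE T8, 9.0 and 8.83 in OSE T9, 10.58 and 10.77 in Actin-GFP MEFs, and 10.65 and 10.80 in Pou5f1-GFP MEFs. MEFs lay above all the rest. They exceeded ES cells 3.60-fold (1.85 ± 0.12, adjusted p = 5.58e-09), and the 3 dimmer probes, all called, gave 1.54, 1.32 and, for the probe below background in ES cells, at least 1.06-fold. OSCE 8 was called 1.43-fold above ES cells by this probe (adjusted p = 0.0165) and by 1 other, and the call by this probe was lost without the second ES array or the second OSCE 8 array. The probes were not assigned to transcripts.

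**Figure D4:**
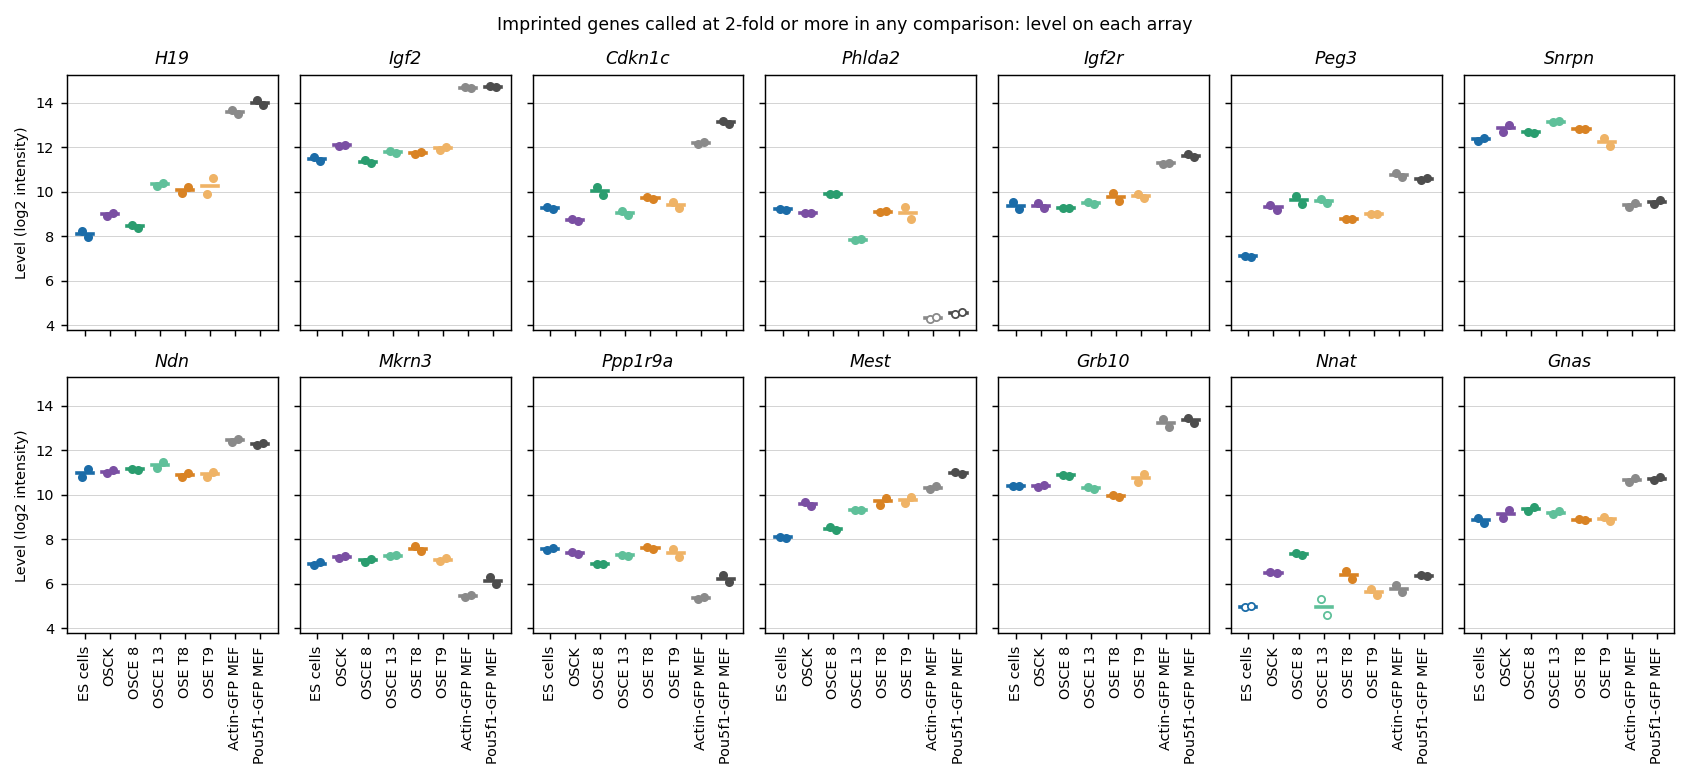
Level on each array, in log2 intensity, of the 14 imprinted genes called at 2-fold or more in any comparison; each point is 1 array, a bar is the mean of a group, and open points mark groups with fewer than 2 arrays above background. ES cells are the lowest group for H19, Peg3 and Mest, MEFs are the lowest for Phlda2, Snrpn, Mkrn3 and Ppp1r9a, and OSCE 8 is the highest for Nnat.

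Among the remaining single genes, Slc38a4, a paternally expressed amino acid transporter, was called 1.73-fold lower in OSE T8 (-0.79 ± 0.18) and 1.77-fold lower in OSE T9 (-0.82 ± 0.18) than in ES cells. Both calls were lost without the second ES array, and its second probe was called lower in OSE T8 (-0.78) and not in OSE T9 (-0.59). The OSE lines together were 1.67-fold below OSCE 13, on the same slides (-0.74 ± 0.16, adjusted p = 0.0034), lost without the second OSCE 13 array, and the second probe gave -0.78. Impact, a paternally expressed regulator of translation, was 1.45-fold lower in MEFs and 1.38-fold to 1.41-fold higher in OSCK, OSCE 8 and OSE T8, each of these lost without the second array of that line, while its second probe was called in MEFs (-0.55) and OSCK (0.56). Nap1l5, a histone chaperone relative, was called higher in MEFs, at least 1.27-fold, which was lost without the second ES array. Inpp5f, an inositol phosphatase, was called in OSCE 13 alone among the lines (1.29-fold), which was lost when any 1 of the 4 arrays was left out, and its second probe was not. Plagl1, a zinc finger protein, was called only between the lines and MEFs, 1.23-fold lower in the lines.

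Some comparisons lie within shared slides and set lines or MEF types against each other. OSCE 8 against OSCK had 4 members higher and 3 lower, where 17.4% of all genes were called. The higher were Cdkn1c, Phlda2, Grb10 and Nnat, the lower Igf2, Ppp1r9a and Mest, and 4 of these calls were left without the first OSCE 8 array. Of the marker lists, 5 of 9 pluripotency and 5 of 16 fibroblast markers were lower and 1 of each higher in OSCE 8 than in OSCK, 4 of 5 primitive endoderm markers were higher and 0 lower, and their part in the 7 members was not tested. The OSE lines against OSCE 13 had 5 higher and 7 lower (20.1% of all genes), and 7 in all without the second OSCE 13 array. Phlda2 was 2.34-fold higher in the OSE lines (1.23 ± 0.12, adjusted p = 5.38e-06) and Nnat 2.07-fold higher (1.05 ± 0.17, adjusted p = 0.000429). Cdkn1c, Asb4 and Mest were higher as well. Lower in them were Ascl2, Peg3, Snrpn, Ndn, Peg10, Slc38a4 and Inpp5f. By class, 2 paternally expressed members, Mest and Nnat, were higher and 6 lower, and 3 maternally expressed members were higher and 1 lower. The difference between the classes was not tested. The trophoblast markers were lower as well, with 0 higher and 4 of 5 tested lower in the OSE lines, a median difference of -0.85 and a sum of 939 to 1653 against 2005 to 2373 in OSCE 13. Of the 16 fibroblast markers 7 were higher and 3 lower, and of the 7 macrophage markers 0 were higher and 3 lower. The part of these cell types in the 12 members was not tested. OSE T8 against OSE T9, lines with the same letters, had 4 higher and 2 lower (12.5% of all genes), led by Grb10 at -0.80 and Nnat at 0.75. Of these 6 calls, 3 in all were left without the first OSE T8 array and 3 without the second OSE T9 array. In OSE T8 4 of 16 fibroblast and 3 of 7 macrophage markers were lower and 0 higher, and 3 of 5 trophoblast markers were higher and 0 lower, and their part was not tested. In a limma fit of those 4 arrays alone, 0 members were called, 8 had an unadjusted p under 0.05, and 3.25% of all genes were called.

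Actin-GFP MEFs against Pou5f1-GFP MEFs had 0 members higher and 5 lower, where 11.5% of all genes were called. The 5 were Cdkn1c, Zim1, Mkrn3, Ppp1r9a and Mest, each under 2-fold. With the replicate number as a block it was 1 higher and 7 lower, and with no background correction 1 higher and 4 lower. The macrophage markers also differed, with a sum of 8047 to 8402 in Actin-GFP and 2060 to 2067 in Pou5f1-GFP MEFs and 6 of 7 tested higher. The striated muscle markers went the same way as the 5 members, with 0 higher and 4 of 5 tested lower in Actin-GFP MEFs, a median difference of -0.92 and a sum of 583 to 627 against 794 to 852. The part of either in these 5 was not tested. The Zim1 call was lost when any 1 of the 4 MEF arrays was left out.

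Related genes gave a backdrop. Of 9 tested partners of IGF signalling, 7 were higher and 1 lower in MEFs than in ES cells, with a median of 0.93. Igf1, the sister growth factor, was 14.8-fold higher, the signalling adaptor Irs1 4.64-fold and the insulin receptor Insr 2.67-fold higher, and Igf2bp1, an RNA-binding protein of Igf2 transcripts, was 4.95-fold lower. In the 5 lines against ES cells 4 of the 9 were higher, with Igf2bp3 at 1.49-fold and Irs1 at 1.42-fold the largest, and 1 was left without the second ES array. Of 18 tested genes that set, keep or remove imprints, 15 were lower and 0 higher in MEFs, with a median of -1.19. Dnmt3l, the cofactor of de novo methylation, was at least 337-fold lower, the methyltransferase Dnmt3b 57.5-fold, the dioxygenase Tet1 16.2-fold and the helicase Hells 7.53-fold lower.

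In the 5 lines against ES cells, 1 of these 18 was higher and 6 were lower, and 3 were called without the second ES array. The higher one was Dppa3, which protects imprints after fertilisation, at 8.85-fold (3.15 ± 0.11, adjusted p = 4.84e-11). Zfp57 was lower by 0.54 (adjusted p = 0.00136) over the lines, 3.12-fold lower in OSCE 8 and 1.94-fold lower in OSCE 13. Dnmt3l was 1.91-fold and Tet2 1.45-fold lower. OSCE 8 thus had the least Zfp57 of the lines. Among other members, it had the most Nnat, Cdkn1c, Phlda2, Peg3, Grb10 and Peg10 and the least Mest, Ppp1r9a, H19, Igf2 and Igf2r. OSCE 13, where Zfp57 was lower as well, had the least Nnat and Phlda2 of the lines. No relation between these was tested.

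Of 26 tested other imprinted genes, 7 were higher and 10 lower in MEFs than in ES cells, and 1 was higher and 8 lower in the 5 lines. Their medians were -0.14 in MEFs and -0.12 in the lines. Cobl, an actin nucleator, was 15.5-fold lower in MEFs and 5.71-fold lower in the lines. Sfmbt2, a Polycomb relative, was 10.5-fold, the hormone gene Sct at least 5.25-fold and the adaptor Gab1 6.04-fold lower in MEFs. The sterol enzyme Dhcr7 was 1.80-fold higher in the lines. The count over the lines was 4 without the first ES array. In the Dlk1-Dio3 cluster, 3 of 5 tested genes were higher in MEFs, Dlk1 19.9-fold, Meg3 3.56-fold and Dio3 at least 1.83-fold. In the lines Rtl1 (1.91-fold) and Meg3 (1.86-fold) were higher and Rian (1.54-fold) was lower.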

How the data were processed

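Total RNA, 500 ng per array, was hybridised to 16 Illumina MouseWG-6 version 1.1 arrays, none left out. The deposited raw table gives the signal intensity of each probe without normalization, and beside it a detection score that is a fraction, 1 minus the detection p, both exported by the authors from BeadStudio, per the file headers. Intensities ran from 22 to 34466. They were background-corrected by the normal-exponential model with the detection p and an offset of 16, quantile normalized and put on log2 (limma 3.58.1, R 4.3.3). The brightest probe stood for a gene if above background (detection p under 0.01) on at least 2 arrays.

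Of 34325 target names, 16079 matched a current symbol and 6654 a synonym, and 11592 were kept as they were; 5 member probes were found by an alias. A limma fit with 1 mean per group over all 16 arrays gave 12 comparisons, called at an adjusted p under 0.05. It had 8 residual degrees of freedom and 6.27 from moderation. The number of arrays limits the precision. Where a probe was above background on no array of 1 group, the fold is a bound against the lowest detected signal of each array (4.89 to 5.05).

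The fit had no block for the replicate number. Array names give 4 slides, and the replicates of a group lie on different slides. The alternatives were array medians set equal, no background correction, an offset of 50, other filters, every probe on its own, replicate and slide blocks, only the groups compared, 1 mean per line and leaving out each array.

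The members and all gene lists were chosen with earlier results of these data known. Members called at 2-fold or more in any comparison are given on every array. Of other lists, up to 4 called genes with the largest change are named. The fit was tested on simulated data.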

Additional observations from a re-analysis of the deposited data

Results flagged for a closer look

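Differences between lines that lie on the same slides reached 2-fold for 4 pairs of member and comparison. The fit pooled the arrays of both slides, with no slide term. Of 31 members tested, 2 were called at 2-fold or more in OSCE 8 against OSCK, where 3.62% of all genes were. The OSE lines against OSCE 13 had 2 (2.42% of all genes), and OSE T8 against OSE T9 had 0 (1.67%). Beside these shares the counts are small. Cdkn1c differed by 1.33 (± 0.14) and Mest by -1.10 (± 0.13) between OSCE 8 and OSCK, so that Cdkn1c was higher and Mest lower in OSCE 8. Phlda2 differed by 1.23 (± 0.12) and Nnat by 1.05 (± 0.17) between the OSE lines and OSCE 13, both higher in the OSE lines. Each difference had the same sign on both slides, but these are the arrays that gave the calls, so this is no separate check. Groups of 2 arrays are too small for a test of outlying arrays.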

How the results depend on the processing

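Of 143 calls of a member in a comparison, 51 were at 2-fold or more, a choice made on these same data. Some settings, namely the filters, the blocks and fits of only the groups compared, leave a fitted difference as it is. In them only the call could change. In 857 values under other normalizations, filters, blocks and fits and without single arrays, all 51 kept direction and call, with a highest adjusted p of 0.0129. With 1 mean per line as the replicate, 4 of 31 such calls were lost: Nnat in MEFs against ES cells (adjusted p = 0.357) and H19 (0.631), Mest (0.467) and Nnat (0.795) in the 5 lines against ES cells. The counts then were 14 members in MEFs and 1 in the 5 lines, and of the other lists 10 other imprinted genes in MEFs, and in the 5 lines 0 of these, 0 of the Dlk1-Dio3 cluster, 1 of imprint maintenance and 0 of IGF signalling. The 92 calls under 2-fold were less stable: 57 of them were lost without at least 1 single array. With array medians set equal 55 of them stayed and 1, Inpp5f in the lines against MEFs, turned sign (-0.03). That setting gave 7 members in the 5 lines, 7 in OSCK, 8 in OSCE 8, 7 in OSE T8, 5 in OSE T9 and 3 in OSE T8 against OSE T9, and 1 IGF partner in the 5 lines. A fit of only the groups compared gave 5 in OSE T9 against ES cells and 0 in OSE T8 against OSE T9. Deviations of arrays with the same replicate number correlated between 0.0985 and 0.431 over 28 pairs of groups, above 0.1 in 27, so each array went best with its own number. All were positive, so the deviations of arrays with the same number were in part shared. The main fit had no block because a correlation over 0.1 was asked for in every pair, and its p-values do not allow for this sharing. The labels do not say what the numbers stand for. By the array names, all first replicates lie on slides 1 and 2 and all second replicates on slides 3 and 4. Replicate number and slide therefore cannot be told apart here. The replicate block changed no call of a member made without it and gave 8 in place of 5 members between the MEF types. The cause of these changes was not tested.

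Leaving out 1 array at a time gave 20 to 22 members in MEFs against ES cells, 6 to 14 in the 5 lines, 6 to 9 in OSCK, 7 to 9 in OSCE 8, 6 to 8 in OSCE 13, 6 to 10 in OSE T8 and 4 to 8 in OSE T9. It gave 23 to 24 in the lines against MEFs, 4 between the MEF types, 4 to 6 in OSCE 8 against OSCK, 3 to 7 in OSE T8 against OSE T9 and 7 to 12 in the OSE lines against OSCE 13. For the 5 lines against ES cells the other lists gave 4 to 10 other imprinted genes, 3 to 7 of imprint maintenance and 1 to 4 of IGF signalling. The deposited normalized matrix was not run, since nothing pairs its probe numbers with those of the raw table. For the 11 members above background on part of the arrays only, background limits how large a difference could be measured.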
